A study of Mus musculus with 12 samples.

Results

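The genes described here are 10 transcription factors known from excitatory neurons of the hippocampus, of 32546 genes in the table of unique molecular identifier (UMI) counts. They were taken by their symbols, and each symbol named 1 row: Neurod1, Neurod2, Neurod6, Bhlhe22, Bcl11b, Zbtb20, Tbr1, Mef2c, Lhx2 and Emx2. Photo-isolation chemistry (PIC) primes reverse transcription on a tissue section with caged primers and releases the cage by light, so that only cDNA of the irradiated area is amplified. CA1, CA3 or the dentate gyrus (DG) was irradiated on brain sections of male ICR (Slc:ICR) mice aged 8 weeks, a stock without a transgene, drug or deletion named in the labels. 4 histological conditions were used: sections of tissue frozen without fixation, treated for 5 min with 0.1 N HCl to open the cells (fresh-frozen HCl), sections of such tissue heated in TE buffer at 70 °C for 1 h (fresh-frozen TE), frozen sections of tissue fixed with 4% paraformaldehyde and heated in TE (fixed frozen TE), and paraffin sections of fixed tissue heated in TE (fixed paraffin TE). Fixed and fresh-frozen refer to the tissue before sectioning, since the protocol of the study also fixes every section briefly in paraformaldehyde on the slide. Each of the 3 regions was collected in each condition as 4 replicates, which the study calls biological replicates without saying which mouse gave which. Each library pooled 4 such replicates under their own barcodes. Region and library therefore cannot be told apart within a condition, nor can condition, library and any set of mice between conditions.

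All 10 genes encode proteins that bind DNA and set the identity of neurons of the dorsal telencephalon. Neurod1, Neurod2, Neurod6 and Bhlhe22 belong to the basic helix-loop-helix (bHLH) family, whose members bind the E-box motif CANNTG. They act as glutamatergic neurons differentiate. Bcl11b (Ctip2) and Zbtb20 are zinc finger factors with known roles in granule cells and in the specification of hippocampal neurons. Tbr1 is a T-box factor of early-born cortical neurons, and Mef2c is a MADS-box factor that limits the number of excitatory synapses. Lhx2 and Emx2 are homeodomain factors that pattern the hippocampal primordium. Pyramidal neurons form the cell layers of CA1 and CA3, and granule cells that of DG, where new granule cells are still born in the adult.

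The depth differed between conditions. The total per replicate ran from 127253 to 933756 UMIs (median 731106.5) in fresh-frozen HCl, from 294445 to 1111804 (median 629964.5) in fresh-frozen TE, from 52800 to 307145 (median 122520.5) in fixed frozen TE and from 35932 to 223055 (median 67528) in fixed paraffin TE. Levels are given as CPM, the UMI count of a gene divided by the total of its replicate on the usual scale. A single UMI is thus worth more CPM in a shallow replicate than in a deep one. Replicate 4 of CA1 in fresh-frozen HCl had 127253 UMIs, the lowest total of the fresh-frozen sections.

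The labelled regions were checked against marker genes. In the 3 frozen conditions the CA1 pyramidal markers Wfs1, Fibcd1, Mpped1, Pou3f1 and Man1a were each higher in CA1 than in DG and than in CA3. Of the 7 granule cell markers, 7, 6 and 6 were higher in DG than in CA1 in fresh-frozen HCl, fresh-frozen TE and fixed frozen TE. Prox1, which maintains granule cell identity, was lower in CA1 than in DG in all 4 conditions (log2 fold change -3.16 ± 0.19, -2.96 ± 0.17, -3.68 ± 0.34 and -1.94 ± 0.34 in fresh-frozen HCl, fresh-frozen TE, fixed frozen TE and fixed paraffin TE). 4 of 6, 4 of 6 and 4 of 4 CA3 pyramidal markers tested were higher in CA3 than in DG in the frozen conditions, and 3 of 5 in paraffin. In paraffin sections fewer of these markers passed between CA1 and DG. Pou3f1 and Mpped1 were higher in CA1, and 2 of 7 granule cell markers were higher in DG (Prox1 and Pdzd2). Fewer of all genes passed there too (edgeR adjusted p under 0.05). The shares higher in CA1 and in DG were 0.87% and 2.42% of 8969 genes, against 8.61% and 8.35% of 14893 in fresh-frozen HCl. The description of the series names CA2 where the sample titles name CA3, and Pcp4, the most abundant of 4 CA2 markers, was highest in DG in every condition. The other CA2 markers did not all follow Pcp4. Over those tested (4 in the frozen conditions, 3 in paraffin), the median log2 fold change of CA3 over DG was -0.34, 0.66, -0.037 and -0.91. Rgs14 was higher in CA1 than in DG and in CA3 in fresh-frozen HCl, and Cacng5 higher in DG than in CA1 in fixed frozen TE.

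The 10 genes lie on 8 chromosomes (GRCm38 coordinates of GENCODE M21, 1-based). The bHLH genes are Neurod1 at chr2:79452521-79456751 (- strand, ENSMUSG00000034701), Neurod2 at chr11:98325415-98329648 (- strand, ENSMUSG00000038255), Neurod6 at chr6:55677822-55681263 (- strand, ENSMUSG00000037984) and Bhlhe22, a gene of 1 exon, at chr3:18054174-18057517 (+ strand, ENSMUSG00000025128). The zinc finger genes are Bcl11b at chr12:107910403-108003602 (- strand, ENSMUSG00000048251) and Zbtb20 at chr16:42875881-43642602 (+ strand, ENSMUSG00000022708). Tbr1 lies at chr2:61802930-61814114 (+ strand, ENSMUSG00000035033), Mef2c at chr13:83504034-83667080 (+ strand, ENSMUSG00000005583), Lhx2 at chr2:38339281-38369733 (+ strand, ENSMUSG00000000247) and Emx2 at chr19:59458372-59465357 (+ strand, ENSMUSG00000043969). The reads were 3' tags, which fall near the end of the last exon, and no strand setting was named for their assignment. Emx2 shares 264 exon bases with Emx2os on the opposite strand, whose own row holds 296 UMIs over the 48 replicates. Zbtb20 shares 104 with Gm9968, also opposite, with 298 UMIs. Reads of these pairs may not be told apart. Neurod1 shares 201 exon bases with Cerkl on the same strand, which has 35 UMIs, and 154 with Gm26755 on the opposite strand, which has 5.

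The sequences before the start sites of the 3 NeuroD genes are shown because the fold changes over DG differed in sign between these paralogs, as described further on. They are RefSeq sequences of GRCm38.p6 on the minus strand, 5′ to 3′, up to the base before the first annotated exon, with each E-box (CANNTG) in capitals, at chr2:79456752-79456886 for Neurod1, chr11:98329649-98329895 for Neurod2 and chr6:55681264-55681513 for Neurod6.
Neurod1: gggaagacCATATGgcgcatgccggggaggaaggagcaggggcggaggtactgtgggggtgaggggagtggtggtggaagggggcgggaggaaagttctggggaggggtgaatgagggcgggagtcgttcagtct
Neurod2: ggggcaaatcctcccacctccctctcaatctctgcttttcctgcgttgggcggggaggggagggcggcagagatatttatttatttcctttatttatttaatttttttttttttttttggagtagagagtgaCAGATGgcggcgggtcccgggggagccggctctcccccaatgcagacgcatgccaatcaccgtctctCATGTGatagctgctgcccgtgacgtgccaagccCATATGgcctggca
Neurod6: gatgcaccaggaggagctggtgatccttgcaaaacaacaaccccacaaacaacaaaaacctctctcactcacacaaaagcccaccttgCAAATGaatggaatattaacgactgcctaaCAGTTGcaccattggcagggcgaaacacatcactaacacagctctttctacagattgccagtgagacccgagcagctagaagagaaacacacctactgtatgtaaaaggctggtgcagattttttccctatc
In windows of 250 bases before to 50 after the start site, Neurod1 held 1 E-box, Neurod2 held 3 and Neurod6 held 2. Over both strands, 8 of the 12 windows found for 9 of the 10 genes held an E-box (7 genes), against 72.3% of all 32851 windows. CAGATG, one form of the E-box, was in 3 of the 12 windows (Neurod2, Mef2c and Lhx2), against 17.2% of all, and CAGCTG, another form, in 0 of 12, against 16.3%. TAATTA, a core that homeodomain proteins bind, was in the windows of Tbr1, Mef2c and Emx2, against 5.29% of all, and AGGTGTGA, a T-box site, in 0 of 12, against 1.28%. These matches describe the letters in the windows and not binding.

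**Figure D1:**
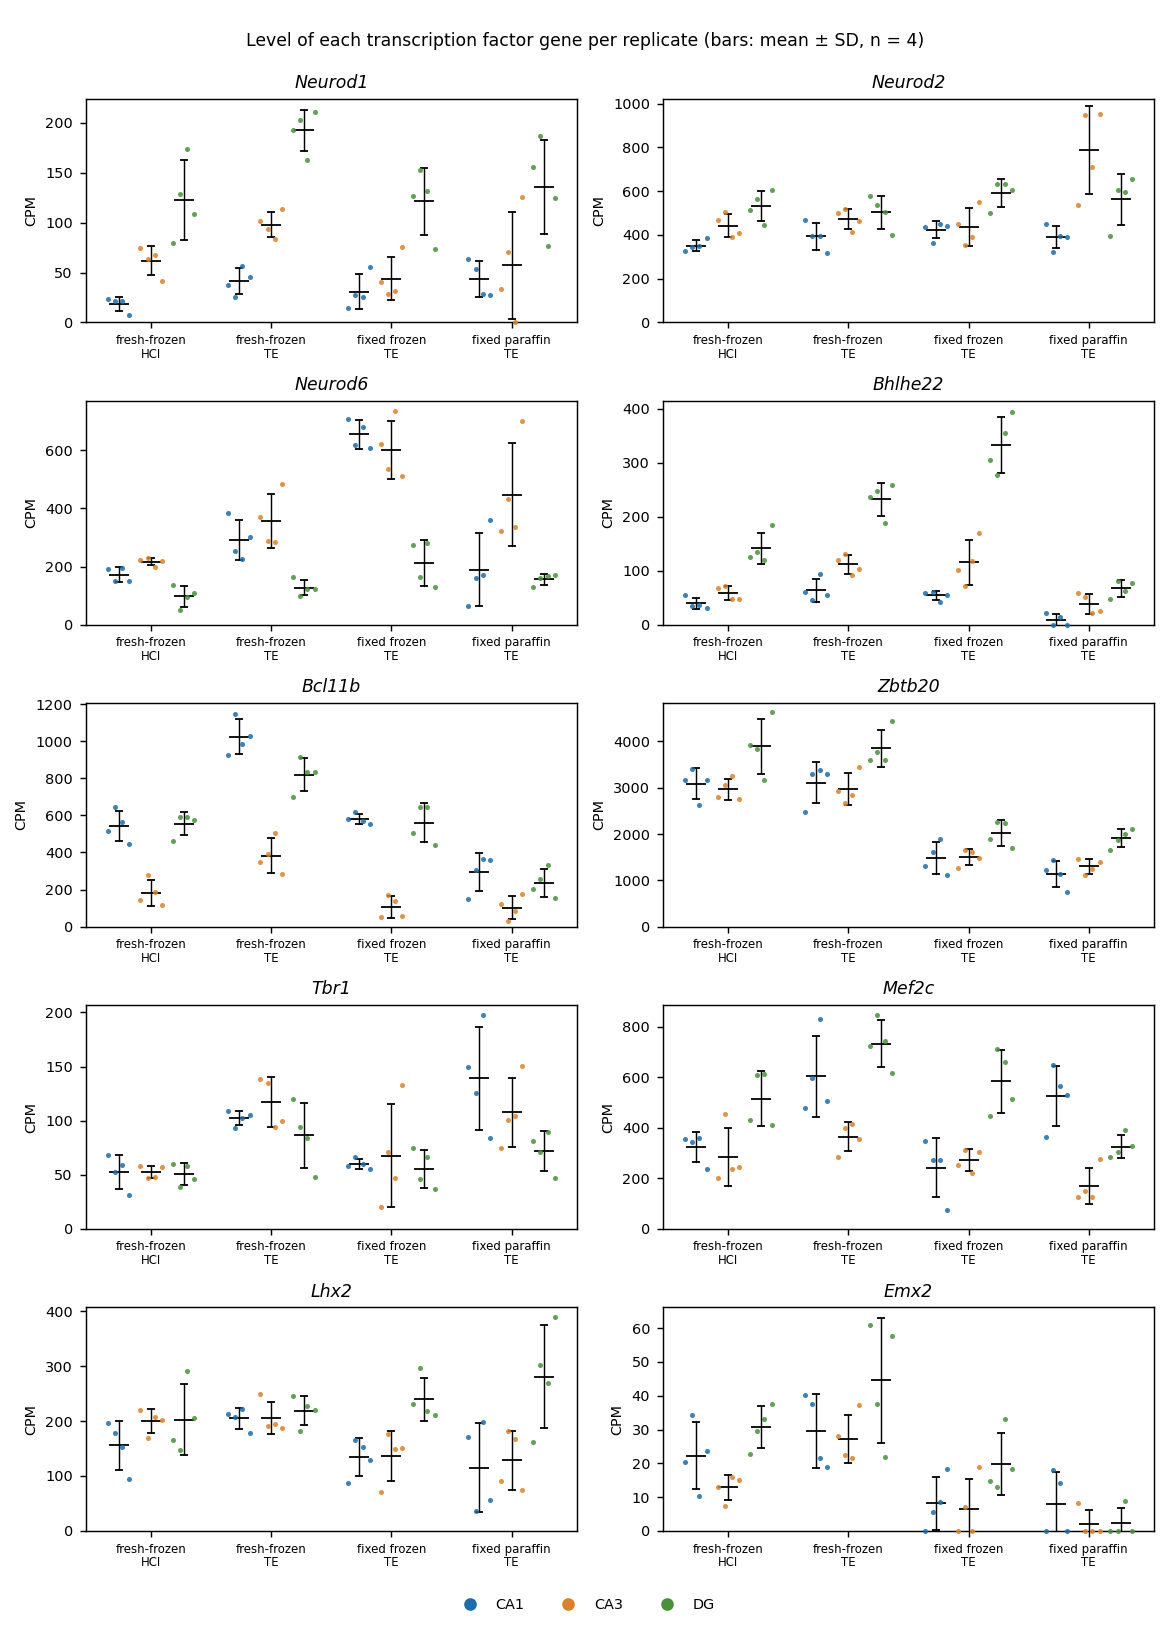
CPM of each of the 10 genes (y axes, linear and starting at 0, scaled per gene) in the 4 replicates of CA1, CA3 and DG in the 4 histological conditions (x axis). Points are replicates and bars are the mean ± SD (n = 4). The means of Neurod1 and Bhlhe22 were lowest in CA1 and highest in DG in all 4 conditions, and the mean of Bcl11b was lowest in CA3.

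Differences between regions were tested within each condition on 4 against 4 replicates (edgeR, quasi-likelihood test, Benjamini-Hochberg adjustment over all genes tested), and a gene is called where the adjusted p is under 0.05. Fold changes are log2 values of the first region named over the second, ± the SE of the fit, so that a negative value is a lower level in the first. The question was which of these genes set CA1, CA3 and DG apart when the sections were prepared in different ways. The irradiated areas hold mixed cells, so fewer cells of a type and less RNA per cell cannot be told apart.

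Between CA1 and DG, Neurod1 and Bhlhe22 were lower in CA1 in all 4 conditions, and Neurod6 was higher in CA1 in the 3 frozen ones. In fresh-frozen HCl, 5 of the 10 genes were called, Neurod6 higher in CA1 and Neurod1, Neurod2, Bhlhe22 and Mef2c higher in DG, where 8.61% and 8.35% of the 14893 genes tested were called higher in CA1 and in DG. In fresh-frozen TE, 3 of 10 were called, Neurod6 in one direction and Neurod1 and Bhlhe22 in the other, against 5.15% and 4.99% of 14011 genes. In fixed frozen TE, 7 of 10 were called, Neurod6 higher in CA1 and Neurod1, Neurod2, Bhlhe22, Zbtb20, Mef2c and Lhx2 higher in DG, against 3.36% and 4.78% of 9385 genes. In fixed paraffin TE, 3 of the 9 tested were called, Neurod1, Bhlhe22 and Lhx2 higher in DG and none higher in CA1, against 0.87% and 2.42% of 8969 genes. Among those tested of the 10, the median log2 fold change (CA1 over DG) was -0.43, -0.27, -0.70 and -0.55 in fresh-frozen HCl, fresh-frozen TE, fixed frozen TE and fixed paraffin TE. It was 0.027, 0.011, -0.11 and -0.18 over all genes tested. In fresh-frozen TE the replicate numbers were taken as pairing the samples, by a rule given further on. The fit with the replicate as a block called 7 of the 10 there, adding Neurod2 (-0.33, edgeR adjusted p = 0.0131), Bcl11b (0.35, edgeR adjusted p = 0.00239), Zbtb20 (-0.28, edgeR adjusted p = 0.00592) and Mef2c (-0.27, edgeR adjusted p = 0.038). With a correction for repeated UMIs, described further on, and without the block, Zbtb20 was -0.22 (edgeR adjusted p = 0.383). The block moved the count over all genes from 1420 to 2262.

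Between CA3 and DG, Neurod6 was higher in CA3 and Bcl11b and Mef2c were lower in CA3 in all 4 conditions, and Neurod1 and Bhlhe22 were lower in CA3 in the 3 frozen ones. In fresh-frozen HCl, 6 of the 10 were called, Neurod6 higher in CA3 and Neurod1, Bhlhe22, Bcl11b, Mef2c and Emx2 higher in DG, where 4.46% and 4.53% of 15161 genes were called higher in CA3 and in DG. In fresh-frozen TE, 5 of 10 were called, the same but for Emx2, against 4.35% and 3.56% of 14386 genes. Fixed frozen TE gave 7 of 10, Neurod6 higher in CA3 and Neurod1, Bhlhe22, Bcl11b, Zbtb20, Mef2c and Lhx2 higher in DG, against 4.29% and 4.98% of 9353 genes. Paraffin gave 3 of 9, Neurod6 higher in CA3 and Bcl11b and Mef2c higher in DG, against 1.93% and 1.28% of 9380 genes. The median log2 fold change (CA3 over DG) was -0.61, -0.48, -0.97 and -0.51 for the genes tested of the 10 (9 in paraffin) in the same order of conditions, beside 0.021, 0.027, -0.090 and -0.058 for all genes tested. The replicate numbers were taken as pairing the samples in both fresh-frozen conditions. There the block added Zbtb20 in HCl (-0.35, edgeR adjusted p = 0.00117) and Zbtb20 (-0.32, edgeR adjusted p = 0.00855) and Tbr1 (0.45, edgeR adjusted p = 0.0415) in TE. With a correction for repeated UMIs and without the block, the differences of Zbtb20 were -0.13 and -0.16 (edgeR adjusted p = 0.628 and 0.573). The block and the correction were not run together. The counts over all genes went from 1363 to 2619 and from 1138 to 1946.

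Between CA1 and CA3, Bcl11b was higher in CA1 in all 4 conditions. In fresh-frozen HCl, 2 of the 10 were called, Bcl11b higher in CA1 and Neurod1 higher in CA3, where 4.07% and 5.06% of 15637 genes were called higher in CA1 and in CA3. In fresh-frozen TE, 4 of 10 were called, Bcl11b and Mef2c higher in CA1 and Neurod1 and Bhlhe22 higher in CA3, against 1.99% and 2.41% of 14544 genes. The replicate block also called 4 of the 10, and 1222 in place of 640 genes in all. The replicate numbers were taken as pairing the samples there, though only 2 of 4 replicates correlated best with their own number. Only Bcl11b, 1 of the 9 tested, was called in fixed frozen TE, against 3.34% and 3.86% of 8286 genes. Paraffin gave 3 of 9, Bcl11b and Mef2c higher in CA1 and Neurod6 higher in CA3, against 0.64% and 1.72% of 7495 genes. The median log2 fold change of CA1 over CA3 was -0.16, -0.10, -0.026 and -0.16 for the genes tested of the 10 (9 in the fixed conditions), beside -0.0097, -0.011, -0.0012 and -0.044 for all genes tested.

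**Figure D2:**
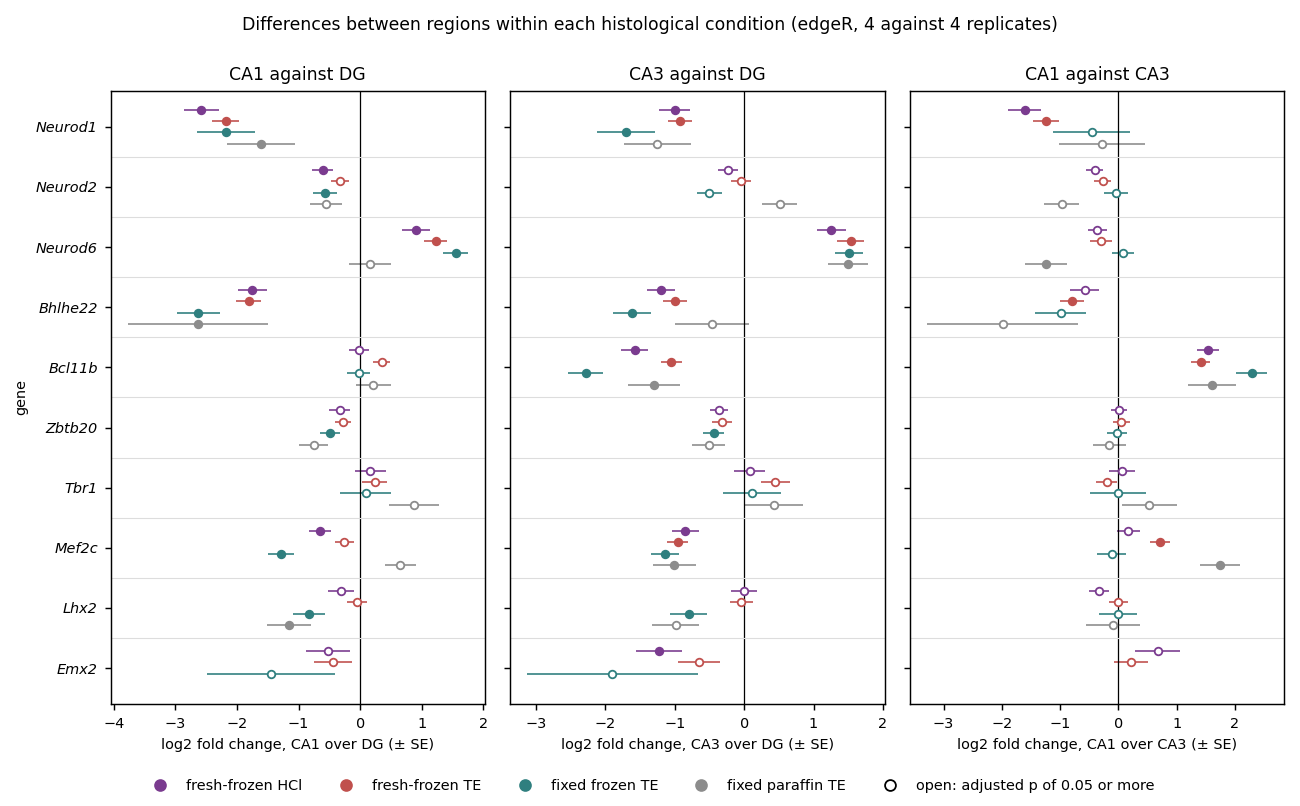
Log2 fold change ± SE (x axes) of each gene (y axis) for CA1 over DG, CA3 over DG and CA1 over CA3, in the 4 histological conditions (colours). Filled points are called (edgeR adjusted p under 0.05) and open points are not. Neurod6 lies to the right of 0 in the CA3 over DG panel in all 4 conditions, and Bcl11b lies to the left there and to the right in the CA1 over CA3 panel.

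Neurod1, a bHLH factor needed for granule cells to form and for newborn granule cells to mature, was higher in DG than in CA1 in all 4 conditions. In fresh-frozen HCl its replicates stood at 23.3, 21.3, 21.9 and 7.86 CPM in CA1, 75.05, 63.2, 67.9 and 41.0 CPM in CA3 and 79.5, 129, 174 and 109 CPM in DG. In fresh-frozen TE they stood at 37.9, 25.6, 56.7 and 45.9 CPM in CA1, 102, 93.5, 83.6 and 113 CPM in CA3 and 193, 203, 163 and 211 CPM in DG. In both fresh-frozen conditions the 3 regions did not overlap, with CA1 lowest and DG highest. CA1 was lower than DG, with log2 fold changes of -2.58 ± 0.29 (edgeR adjusted p = 9.49e-10) in HCl and -2.18 ± 0.21 (edgeR adjusted p = 6.30e-10) in TE. CA3 lay between them, with log2 fold changes over DG of -1.002 ± 0.22 and -0.93 ± 0.17 (edgeR adjusted p = 0.00365 and 0.00053) and of CA1 over CA3 of -1.61 ± 0.28 and -1.25 ± 0.22 (edgeR adjusted p = 0.000114 and 0.000415). The CA3 difference from DG in HCl was lost without DG replicate 3 (edgeR adjusted p = 0.0582).

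In fixed frozen TE Neurod1 stood at 14.5, 27.6, 25.6 and 55.4 CPM in CA1, 40.7, 28.2, 31.3 and 75.8 CPM in CA3 and 127, 153, 132 and 73.4 CPM in DG, from 12, 16 and 104 UMIs. In fixed paraffin TE it stood at 64.0, 54.0, 28.3 and 27.8 CPM in CA1, 33.1, 70.5, 0 and 125 CPM in CA3 and 156, 187, 76.2 and 124 CPM in DG, from 9, 16 and 69 UMIs. DG was again above CA1 in every replicate, while CA3 overlapped with both. The log2 fold change of CA1 against DG was -2.18 ± 0.48 (edgeR adjusted p = 6.37e-06) in frozen and -1.61 ± 0.56 (edgeR adjusted p = 0.0376) in paraffin sections. The call in paraffin was lost without CA1 replicate 2, 3 or 4 or DG replicate 1, 2 or 4 (edgeR adjusted p = 0.0637 to 0.191) and with DESeq2 (DESeq2 adjusted p = 0.202). CA3 was lower than DG in fixed frozen sections (-1.70 ± 0.42, edgeR adjusted p = 0.000306), and its differences from DG in paraffin (-1.25 ± 0.48) and from CA1 in both fixed conditions did not pass.

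The summed level of markers of immature granule cells and progenitors was also highest in DG, and between 1 and 3 of them were called higher in DG than in CA1 in each condition. The summed CPM of the 8 markers listed (Dcx, Sox11, Eomes, Neurog2, Igfbpl1, Sox2, Tfap2c and Calb2) was 335 ± 15.4 in CA1, 296 ± 30.3 in CA3 and 428 ± 48.5 in DG (SD, n = 4) in fresh-frozen HCl, and 386 ± 18.2, 417 ± 54.0 and 605 ± 22.8 in fresh-frozen TE. In fixed frozen TE the sums were 147 ± 24.9, 164 ± 43.3 and 448 ± 56.8, and in paraffin 204 ± 98.0, 280.1 ± 62.8 and 518 ± 49.95. Per replicate the sums ran from 367 to 411 in CA1 and from 572 to 624 in DG in fresh-frozen TE. Sox2, which astrocytes share, or Sox11 was the most abundant of them in each group. Calb2 was called higher in DG than in CA1 in all 4 conditions, and was the only one called in fresh-frozen HCl, fresh-frozen TE and paraffin. The calls there thus rest on 1 gene. In the order fresh-frozen HCl, fresh-frozen TE, fixed frozen TE and fixed paraffin TE, 1 of 5, 1 of 5, 3 of 5 and 1 of 4 markers tested were higher in DG than in CA1. Of the progenitor markers, Eomes was at 0 in DG in fresh-frozen HCl, Neurog2 at 0 in DG in fixed frozen TE, and Eomes, Neurog2, Igfbpl1 and Tfap2c at 0 in CA1 in fixed frozen TE. The part of these cells in the differences of Neurod1 was not tested.

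Neurod2, a bHLH factor of maturing excitatory neurons, had its lowest mean in CA1 in all 4 conditions. Its mean was 350.5 ± 24.6 CPM in CA1, 443 ± 53.6 in CA3 and 533 ± 68.8 in DG (SD, n = 4) in fresh-frozen HCl. CA1 over CA3 there was -0.41 ± 0.15 (edgeR adjusted p = 0.0846), without overlap, and it passed without CA1 replicate 4 (edgeR adjusted p = 0.0485) and under the block (edgeR adjusted p = 0.0256). In fresh-frozen TE the means were 393 ± 62.4, 473 ± 44.6 and 504.1 ± 75.3 CPM, and the replicates of all 3 regions overlapped. In fixed frozen TE they were 424 ± 39.7, 435 ± 85.4 and 592 ± 62.8 CPM, with every DG replicate above every CA1 replicate. CA1 was lower than DG in fresh-frozen HCl (-0.61 ± 0.17, edgeR adjusted p = 0.00843) and in fixed frozen TE (-0.57 ± 0.19, edgeR adjusted p = 0.0374). The second of these was lost without CA1 replicate 1, 2, 3 or 4 or DG replicate 2, 3 or 4 (edgeR adjusted p = 0.0581 to 0.244) and with DESeq2 (DESeq2 adjusted p = 0.153). Paraffin sections gave another order, with 389 ± 50.9 CPM in CA1, 787 ± 201 in CA3 and 562 ± 115 in DG. All 4 CA3 replicates there lay above the CA1 replicates, and CA1 over CA3 was -0.98 ± 0.30 (edgeR adjusted p = 0.0505), just outside the threshold. It passed with DESeq2 size factors, the low-count filter filterByExpr of edgeR and the block (edgeR adjusted p = 0.0441, 0.0210 and 0.0149) and without CA3 replicate 1 or 3 (edgeR adjusted p = 0.0141 and 0.0385). In fixed frozen TE, CA3 over DG did not pass (edgeR adjusted p = 0.0638) and passed with filterByExpr, the block and the correction for repeated UMIs (edgeR adjusted p = 0.0348, 0.00788 and 0.0483) and without CA3 replicate 4 or DG replicate 1 (edgeR adjusted p = 0.0441 and 0.0380).

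Neurod6 (NEX), a bHLH factor of differentiating and mature pyramidal neurons, had fold changes of CA1 and CA3 over DG opposite in sign to those of Neurod1. In fresh-frozen HCl its replicates stood at 192, 149, 196 and 149 CPM in CA1, 221, 229, 199 and 220.2 CPM in CA3 and 136, 49.6, 93.9 and 109 CPM in DG. In fresh-frozen TE they stood at 385, 255, 224 and 302 CPM in CA1, 369.9, 288, 285 and 485 CPM in CA3 and 165, 98.8, 124 and 122 CPM in DG. In both conditions every CA1 and every CA3 replicate lay above every DG replicate. CA1 was higher than DG by 0.91 ± 0.22 (edgeR adjusted p = 0.00308) in HCl and 1.23 ± 0.19 (edgeR adjusted p = 8.15e-06) in TE. CA3 was higher than DG by 1.25 ± 0.21 (edgeR adjusted p = 0.000193) and 1.53 ± 0.20 (edgeR adjusted p = 3.39e-06).

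Neurod6 in fixed frozen TE stood at 709.8, 619, 682 and 609 CPM in CA1, 621, 536, 736 and 511 CPM in CA3 and 276, 163, 280.5 and 128 CPM in DG. CA1 and CA3 did not overlap with DG there, and were higher by 1.55 ± 0.20 and 1.51 ± 0.20 (edgeR adjusted p = 2.75e-12 and 4.93e-12). In fixed paraffin TE it stood at 64.0, 162, 169.5 and 362 CPM in CA1, 323, 433, 335 and 702 CPM in CA3 and 129, 160.0, 166 and 171 CPM in DG. The CA1 replicates spread over the range of DG in paraffin, and the difference of CA1 from DG was 0.16 ± 0.34 (edgeR adjusted p = 0.901). CA3 was still higher than DG, by 1.49 ± 0.29 (edgeR adjusted p = 0.0002), with no overlap. CA1 was lower than CA3 in paraffin (-1.24 ± 0.36, edgeR adjusted p = 0.028), a call lost without CA1 replicate 1, 2 or 3 or CA3 replicate 2 or 4 (edgeR adjusted p = 0.0597 to 0.177) and with DESeq2 (DESeq2 adjusted p = 0.097). In the frozen conditions CA1 and CA3 differed by -0.36 ± 0.16, -0.30 ± 0.19 and 0.072 ± 0.19, none of which passed, although every CA3 replicate lay above every CA1 replicate in fresh-frozen HCl.

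Since Neurod1 and Neurod6 had fold changes over DG of opposite sign, the make-up of the NeuroD UMIs differed between regions. These shares are of counts of 3' tags, and no order of the 3 genes within a region is read from them. Neurod6 gave 31.6% ± 3.92 of the UMIs of the 3 genes in CA1, 30.2% ± 1.94 in CA3 and 12.9% ± 4.90 in DG (SD, n = 4) in fresh-frozen HCl. In fresh-frozen TE its share was 39.9% ± 5.51, 38.1% ± 5.68 and 15.4% ± 2.55, and in fixed frozen TE 59.1% ± 2.94, 55.7% ± 7.82 and 22.6% ± 7.21. In these 3 conditions the share of every DG replicate lay below that of every CA1 and CA3 replicate. In paraffin it was 29.0% ± 14.4, 34.4% ± 4.27 and 18.4% ± 1.28, and the CA1 replicates, at 11.1, 30.0, 28.6 and 46.4%, overlapped with DG. The share of Neurod1 in DG was 16.4% ± 5.90, 23.5% ± 3.84, 13.0% ± 2.97 and 16.2% ± 6.27 in fresh-frozen HCl, fresh-frozen TE, fixed frozen TE and fixed paraffin TE, against 3.44% ± 1.34, 5.84% ± 2.20, 2.797% ± 1.59 and 7.36% ± 3.75 in CA1.

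**Figure D3:**
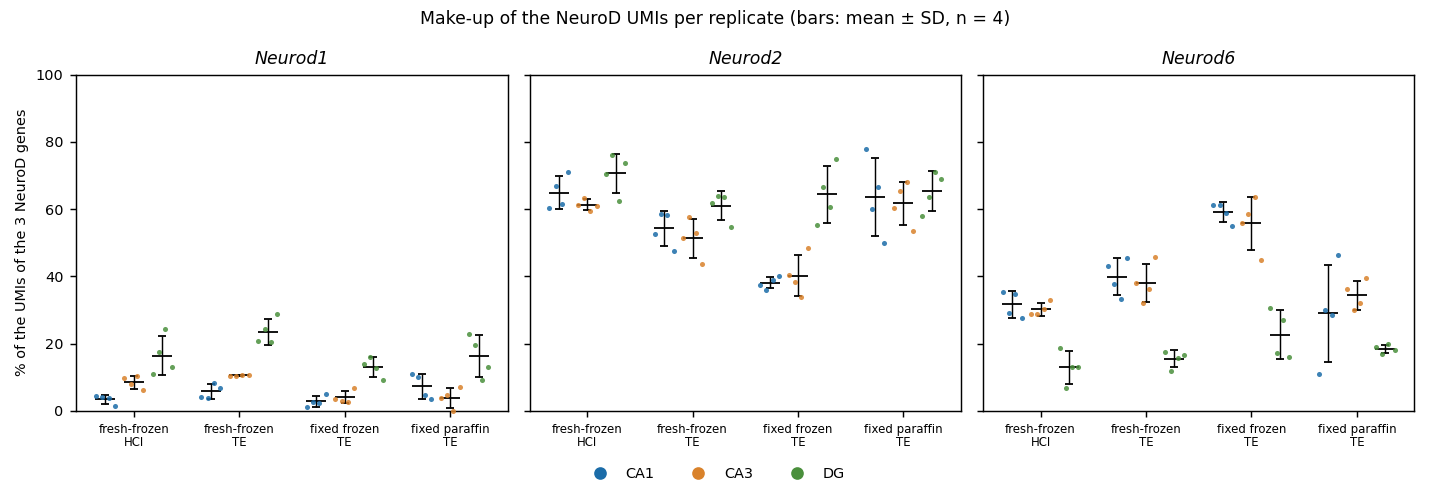
Share of Neurod1, Neurod2 and Neurod6 (panels) among the UMIs of the 3 genes (y axis, %) per replicate, by histological condition (x axis) and region (colours). Points are replicates and bars are the mean ± SD (n = 4). The DG points lie below the CA1 and CA3 points for Neurod6 in the 3 frozen conditions.

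Bhlhe22 (BHLHB5), a bHLH repressor with a role in neuronal identity and axon tracts, was highest in DG as Neurod1 was. In fresh-frozen HCl its replicates stood at 54.7, 34.4, 35.7 and 31.4 CPM in CA1, 67.5, 71.8, 46.9 and 46.5 CPM in CA3 and 125, 135, 121 and 184 CPM in DG. In fresh-frozen TE they stood at 60.9, 45.2, 94.5 and 54.0 CPM in CA1, 119, 130.4, 92.2 and 104 CPM in CA3 and 236, 247, 188 and 258 CPM in DG. Fixed frozen TE gave 57.9, 60.8, 42.6 and 55.4 CPM in CA1, 102, 70.6, 117 and 170.4 CPM in CA3 and 306, 277, 355 and 394 CPM in DG. In these 3 conditions every DG replicate was above every replicate of CA1 and of CA3. Log2 fold changes of CA1 against DG were -1.75 ± 0.24, -1.81 ± 0.20 and -2.63 ± 0.35 in fresh-frozen HCl, fresh-frozen TE and fixed frozen TE (edgeR adjusted p = 2.87e-07, 1.21e-08 and 6.14e-16). Those of CA3 against DG were -1.20 ± 0.20, -0.998 ± 0.17 and -1.62 ± 0.27 (edgeR adjusted p = 0.000231, 0.000152 and 4.78e-08). CA1 was lower than CA3 in fresh-frozen TE (-0.80 ± 0.21, edgeR adjusted p = 0.0174), a call lost without CA1 replicate 1, 2 or 4 or CA3 replicate 1 or 2 (edgeR adjusted p = 0.0518 to 0.101).

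Paraffin sections held few UMIs of Bhlhe22. It stood at 21.3, 0, 14.1 and 0 CPM in CA1, 57.9, 50.4, 20.9 and 25.1 CPM in CA3 and 47.5, 80.0, 62.8 and 77.8 CPM in DG, from 2, 14 and 35 UMIs. With 2 of 209136 UMIs in CA1 against 35 of 547302 in DG, the ratio of the pooled rates was 0.150 with an exact 95% interval from 0.0174 to 0.582, which covers counting error only. The difference of CA1 from DG passed (-2.63 ± 1.14, edgeR adjusted p = 0.0464) and was lost without CA1 replicate 1, 2, 3 or 4 or DG replicate 1, 2, 3 or 4 (edgeR adjusted p = 0.0503 to 0.176). The difference of CA3 from DG was within its spread (-0.46 ± 0.54, edgeR adjusted p = 0.768).

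Bcl11b, a zinc finger factor of granule cells and of CA1 pyramidal neurons, also known from interneurons, set CA3 apart from both other regions. In fresh-frozen HCl its replicates stood at 514, 643, 567 and 448 CPM in CA1, 144, 281, 188 and 116 CPM in CA3 and 463, 592, 591 and 574 CPM in DG. In fresh-frozen TE they stood at 928, 1149, 986 and 1031 CPM in CA1, 348, 390.4, 506 and 281 CPM in CA3 and 697, 915, 834 and 832 CPM in DG. Fixed frozen TE gave 579, 619, 571 and 554 CPM in CA1, 50.9, 169, 141 and 56.8 CPM in CA3 and 507, 648, 648 and 440.4 CPM in DG. Every CA3 replicate lay below every CA1 and DG replicate in these 3 conditions. CA3 was lower than DG, with log2 fold changes of -1.58 ± 0.19, -1.05 ± 0.15 and -2.28 ± 0.25 (edgeR adjusted p = 3.91e-06, 2.47e-05 and 3.94e-20). CA1 was higher than CA3 by 1.53 ± 0.19, 1.41 ± 0.16 and 2.29 ± 0.27 (edgeR adjusted p = 1.07e-06, 7.50e-07 and 1.36e-16). None of these 6 calls was lost when any 1 of the 8 replicates was left out.

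In fixed paraffin TE Bcl11b stood at 149, 306, 367 and 362 CPM in CA1, 124, 30.2, 83.7 and 175 CPM in CA3 and 203, 258, 332 and 156 CPM in DG. CA3 was again lowest on average, with 29 UMIs in all, and now overlapped with both. CA3 was lower than DG, with a log2 fold change of -1.30 ± 0.38 (edgeR adjusted p = 0.0224) and CA1 higher than CA3 by 1.61 ± 0.42 (edgeR adjusted p = 0.00717). The first was lost without CA3 replicate 2 or 3 or DG replicate 2 or 3 (edgeR adjusted p = 0.0526 to 0.196) and the second without CA1 replicate 3 or CA3 replicate 2 (edgeR adjusted p = 0.0585 to 0.134). DESeq2 called neither (DESeq2 adjusted p = 0.098 and 0.0532). No difference between CA1 and DG passed without the block, at -0.015 ± 0.17, 0.35 ± 0.14, -0.025 ± 0.18 and 0.22 ± 0.28 (edgeR adjusted p = 0.964, 0.109, 0.963 and 0.82). The 10 interneuron markers, with Sst, Gad1 or Gad2 the most abundant, were also lowest in CA3 in 3 conditions, with sums of 1349 ± 172, 948 ± 110.2 and 1089.8 ± 114 CPM in CA1, CA3 and DG in fresh-frozen HCl, 1234 ± 232, 835 ± 135 and 1136 ± 288 in fixed frozen TE and 946 ± 289.6, 747 ± 188 and 1061 ± 200.2 in paraffin. In fresh-frozen TE, where Bcl11b was also lowest in CA3, the sums were 1284 ± 149, 1172 ± 87.8 and 956 ± 120.1, lowest in DG. Between CA3 and DG, 1 of 10, 0 of 10, 1 of 8 and 0 of 8 of these markers tested were called lower in CA3 in the 4 conditions, the 1 being Gad1 each time, and the part of interneurons in the levels of Bcl11b was not tested.

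Zbtb20, a zinc finger factor that specifies hippocampal pyramidal neurons and is also found in astrocytes, gave the largest counts of the 10. Its mean was 3087 ± 331 CPM in CA1, 2962 ± 235 in CA3 and 3892 ± 596 in DG (SD, n = 4) in fresh-frozen HCl and 3111 ± 432, 2968 ± 339 and 3850.4 ± 404 in fresh-frozen TE. The means in fixed frozen TE were 1481 ± 338, 1499 ± 174 and 2023 ± 278, and in fixed paraffin TE 1138 ± 287, 1302 ± 162 and 1909.8 ± 195. DG had the highest mean in all 4 conditions, and its replicates did not overlap with those of CA1 or CA3 in fresh-frozen TE and paraffin. These CPM are without the correction for repeated UMIs given below, and the overlap was not examined with it. In fresh-frozen TE the correction moved CA1 over DG from -0.28 to -0.22 and CA3 over DG from -0.32 to -0.16. In the fit without the block the differences passed in fixed frozen TE, with CA1 over DG at -0.49 ± 0.16 (edgeR adjusted p = 0.0325) and CA3 over DG at -0.44 ± 0.15 (edgeR adjusted p = 0.0445). The first was lost without CA1 replicate 1, 2 or 4 or DG replicate 1, 2 or 3 (edgeR adjusted p = 0.0728 to 0.238), and the second without CA3 replicate 1 or 4 or DG replicate 2 or 3 (edgeR adjusted p = 0.089 to 0.196). DESeq2 called neither (DESeq2 adjusted p = 0.122 and 0.0528). The 6 astrocyte markers (Slc1a2 or Slc1a3 most abundant) were also highest in DG in all 4 conditions, summing to 3287 ± 244, 3714 ± 245 and 4300.3 ± 588 CPM in CA1, CA3 and DG in fresh-frozen HCl and to 1473 ± 227, 1592 ± 159.6 and 1899.8 ± 189 in fixed frozen TE. Their part was not tested.

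The UMIs had 6 bases, so that 4096 different ones exist, and Zbtb20 reached 2959 of them in 1 replicate (72.2%). Where UMIs are drawn that often, the same UMI falls on several molecules and the count is too low, by a factor of 1.77 at the maximum. With counts corrected for this, CA3 over DG moved from -0.37 to -0.13 in fresh-frozen HCl and from -0.32 to -0.16 in fresh-frozen TE. CA1 over CA3, uncalled throughout, changed sign from 0.0098 to -0.20 in fresh-frozen HCl and from 0.052 to -0.045 in fresh-frozen TE. In paraffin, CA1 over DG passed with the correction (-0.79, edgeR adjusted p = 0.0448) and did not without it (-0.76 ± 0.24, edgeR adjusted p = 0.0526). It also passed there under the block (edgeR adjusted p = 0.000157) and with no filter on low counts (edgeR adjusted p = 0.0394), and CA3 over DG in fresh-frozen HCl passed without DG replicate 3 (edgeR adjusted p = 0.0343). Of the other genes Bcl11b had the largest count, 808 UMIs, with a correction of 1.11.

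Tbr1, a T-box factor of deep cortical layers, showed no difference between the regions that passed in any condition without the block. Its mean was 52.7 ± 15.6 CPM in CA1, 52.6 ± 5.81 in CA3 and 50.7 ± 10.04 in DG (SD, n = 4) in fresh-frozen HCl, and 103 ± 6.68, 117 ± 23.1 and 86.3 ± 30.0 in fresh-frozen TE. The fixed frozen means were 59.8 ± 4.69, 67.6 ± 47.9 and 55.7 ± 17.6, and in fixed paraffin TE 139 ± 47.7, 108 ± 31.5 and 72.2 ± 18.6. The replicates of all 3 regions overlapped in all 4 conditions. The fold changes of CA1 over DG ran from 0.087 to 0.87, all positive, and DG had the lowest mean in each condition.

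Mef2c, a MADS-box factor of excitatory neurons that interneurons and microglia also express, had its highest mean in DG in the 3 frozen conditions and in CA1 in paraffin. In fresh-frozen HCl its replicates stood at 354, 343, 360.0 and 236 CPM in CA1, 200.5, 454, 238 and 246 CPM in CA3 and 431, 608, 614 and 410.3 CPM in DG. In fresh-frozen TE they stood at 479, 598, 831 and 507 CPM in CA1, 286, 401, 416 and 356 CPM in CA3 and 724, 847, 745 and 618 CPM in DG. CA3 lay below DG in both, with an overlap in HCl where replicate 2 of CA3 was high. The log2 fold changes of CA3 against DG were -0.85 ± 0.20 (edgeR adjusted p = 0.00587) and -0.96 ± 0.15 (edgeR adjusted p = 4.49e-05). CA1 was lower than DG in HCl (-0.65 ± 0.18, edgeR adjusted p = 0.00742) and in TE stood above CA3 (0.72 ± 0.17, edgeR adjusted p = 0.0086), a call lost without CA1 replicate 3 (edgeR adjusted p = 0.0693).

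Mef2c in fixed frozen TE stood at 348, 271, 273 and 73.8 CPM in CA1, 255, 311, 219 and 303 CPM in CA3 and 447, 713, 660.0 and 514 CPM in DG. Paraffin sections gave 363, 648, 565 and 529 CPM in CA1, 124, 151, 125 and 276 CPM in CA3 and 285, 302, 390.0 and 327 CPM in DG. CA1 lay below DG without overlap in fixed frozen sections, and in paraffin 3 of the 4 CA1 replicates lay above all 4 DG replicates. CA1 over DG was -1.28 ± 0.21 (edgeR adjusted p = 4.45e-08) in fixed frozen and 0.65 ± 0.25 (edgeR adjusted p = 0.154) in paraffin sections, where it passed with filterByExpr (0.80, edgeR adjusted p = 0.0149). CA3 was lower than DG in both (-1.14 ± 0.20 and -1.01 ± 0.31, edgeR adjusted p = 7.41e-07 and 0.0427), the second being lost without CA3 replicate 1, 2 or 3 or DG replicate 1, 2, 3 or 4 (edgeR adjusted p = 0.0529 to 0.152) and with DESeq2 (DESeq2 adjusted p = 0.0913). CA1 was higher than CA3 in paraffin by 1.74 ± 0.35 (edgeR adjusted p = 8.90e-05), with no overlap and in all 8 fits with 1 replicate left out. For CA1 over DG in paraffin, the 7 alternatives ran from 0.22 to 0.80, and 1 of them passed.

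The test of the region by condition interaction over all 48 replicates called Mef2c alone of the 10 (edgeR adjusted p = 0.000809), where 2.69% of 18884 genes were called. For CA1 over DG its log2 fold change was -0.65, -0.26, -1.28 and 0.65 in fresh-frozen HCl, fresh-frozen TE, fixed frozen TE and fixed paraffin TE. The call was lost without replicate 2 of every library (edgeR adjusted p = 0.068) and when all replicates were thinned to 35932 UMIs (edgeR adjusted p = 0.104), and none of the other 9 genes passed. The interaction passed for Lhx2 without replicate 3 (edgeR adjusted p = 0.0309), with the correction for repeated UMIs (edgeR adjusted p = 0.0445) and under the block (edgeR adjusted p = 0.0110), for Neurod6 and Bcl11b under the block (edgeR adjusted p = 0.0240 and 0.0306) and for Neurod2 with DESeq2 (DESeq2 adjusted p = 0.0173). The 6 microglial markers summed to 69.1 ± 12.4, 67.6 ± 17.9 and 100.4 ± 89.9 CPM in CA1, CA3 and DG in paraffin and the 10 interneuron markers to 946 ± 289.6, 747 ± 188 and 1061 ± 200.2, with Dlx2 at 0 in CA3. The microglial mean of DG rests on replicate 4, since its replicates 1 to 4 stood at 61.0, 35.6, 71.7 and 233 CPM. The part of those cells in Mef2c was not tested.

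Lhx2, a LIM homeodomain factor, was called between regions in the fixed conditions, with DG highest, and in no comparison of regions in the fresh-frozen ones. That contrast between conditions did not pass as an interaction (edgeR adjusted p = 0.0859). The replicates ran from 94.3 to 197, 169 to 221 and 147 to 292 CPM in CA1, CA3 and DG in fresh-frozen HCl, and from 178 to 222, 188 to 249 and 182 to 246 in fresh-frozen TE, and all regions overlapped. In fixed frozen TE they ran from 86.9 to 166, 71.3 to 176 and 211 to 296, and in fixed paraffin TE from 36.0 to 198, 75.2 to 181 and 163 to 389. DG lay above both other regions without overlap in fixed frozen sections. There the log2 fold change over DG was -0.83 ± 0.26 (edgeR adjusted p = 0.0196) for CA1 and -0.80 ± 0.26 (edgeR adjusted p = 0.0234) for CA3. In paraffin that of CA1 was -1.16 ± 0.36 (edgeR adjusted p = 0.024). In that order these calls were lost without CA1 replicate 1 or 4 or DG replicate 2 (edgeR adjusted p = 0.0586 to 0.143), without CA3 replicate 1 or DG replicate 2 (edgeR adjusted p = 0.125 to 0.144) and without CA1 replicate 2 or 4 or DG replicate 2, 3 or 4 (edgeR adjusted p = 0.0725 to 0.261). DESeq2 made none of the 3 (DESeq2 adjusted p = 0.138, 0.116 and 0.203). CA3 over DG in paraffin was -0.99 ± 0.34 (edgeR adjusted p = 0.0846), and it passed without CA3 replicate 2 (edgeR adjusted p = 0.0484), without DG replicate 1 (edgeR adjusted p = 0.0350) and under the block (edgeR adjusted p = 0.0478).

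Emx2, a homeodomain factor needed for the dentate gyrus to form, had the fewest UMIs. In fresh-frozen HCl its replicates stood at 20.5, 34.4, 10.4 and 23.6 CPM in CA1, 12.9, 7.497, 16.0 and 15.04 CPM in CA3 and 22.7, 29.5, 33.0 and 37.7 CPM in DG. CA3 was lower than DG there, without overlap, at -1.22 ± 0.33 (edgeR adjusted p = 0.0144), a call lost without DG replicate 3 (edgeR adjusted p = 0.0649). In fresh-frozen TE the means were 29.6 ± 10.9, 27.3 ± 7.18 and 44.5 ± 18.4 CPM (SD, n = 4) and no difference passed. Fixed frozen sections held 3, 2 and 16 UMIs in CA1, CA3 and DG, a ratio of CA1 to DG of 0.353 with an exact 95% interval from 0.0659 to 1.23 and of CA3 to DG of 0.236 from 0.0263 to 1.00. Paraffin sections held 2, 1 and 2 UMIs, and a difference was not detectable at this depth.

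Whether the levels differed with permeabilization, fixation and embedding was asked in 3 comparisons of conditions, each on 12 against 12 replicates with region as a covariate. Each region gives 1 library per condition, and fresh-frozen TE and fixed frozen TE each enter 2 of these comparisons. In all, 8 of the 10 genes were lower in fresh-frozen HCl than in fresh-frozen TE, where 16.2% and 14.3% of 18164 genes were called higher and lower in HCl. Bcl11b was lower, at -0.98 ± 0.11 (edgeR adjusted p = 2.90e-10), Tbr1 at -1.09 ± 0.13 (edgeR adjusted p = 8.38e-10) and Bhlhe22 at -0.93 ± 0.12 (edgeR adjusted p = 2.18e-08). Neurod1, Neurod6, Mef2c and Emx2 were lower, at -0.82 ± 0.13, -0.80 ± 0.12, -0.71 ± 0.12 and -0.82 ± 0.20. Lhx2 passed at -0.29 ± 0.11 (edgeR adjusted p = 0.0349) and was lost without replicate 1, 2 or 4 (edgeR adjusted p = 0.0682 to 0.151), while Neurod2 (-0.21 ± 0.090) and Zbtb20 (-0.15 ± 0.088) did not pass. Neurod2 passed without replicate 4 (edgeR adjusted p = 0.0246) and under the block (edgeR adjusted p = 0.0345). The median of the 10 was -0.81, beside 0.10 for all genes tested. Thinned to 35932 UMIs, Neurod1 (-0.55), Mef2c (-0.39), Lhx2 (-0.33) and Emx2 (-0.86) did not pass (edgeR adjusted p = 0.414, 0.164, 0.461 and 0.458).

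In fixed frozen sections 6 of the 10 genes were lower, and Neurod6 higher, than in fresh-frozen sections heated in TE. The 7 calls stand beside a background in which 15.8% and 32.9% of 15878 genes were called higher and lower in fixed sections. Neurod6 was higher by 0.83 ± 0.12 (edgeR adjusted p = 1.89e-08), against a median of -0.39 over all genes tested. Emx2, Zbtb20, Bcl11b, Tbr1, Neurod1 and Mef2c were lower, at -1.53 ± 0.38, -1.05 ± 0.096, -0.95 ± 0.13, -0.83 ± 0.19, -0.78 ± 0.18 and -0.68 ± 0.13. With the correction for repeated UMIs, Zbtb20 went from -1.05 to -1.55. In CA1, CA3 and DG, the astrocyte markers summed to 4520 ± 598, 4290.5 ± 416 and 5777 ± 1089 CPM in fresh-frozen TE. In fixed frozen TE they summed to 1473 ± 227, 1592.5 ± 159.6 and 1899.8 ± 189. Endothelial sums went from 259, 229 and 283 to 113, 118 and 153 CPM. Oligodendrocyte sums went from 6552, 6075 and 2734 to 10448, 4818 and 2399.5 CPM. The part of these cells in the differences was not tested. Neurod2 (-0.0034 ± 0.11), Bhlhe22 (0.17 ± 0.15) and Lhx2 (-0.31 ± 0.14) did not pass, and the last of these passed without replicate 2, 3 or 4 (edgeR adjusted p = 0.00753 to 0.0424) and with DESeq2 (DESeq2 adjusted p = 0.0265). Thinned to 35932 UMIs, Emx2 (-1.43), Tbr1 (-0.62) and Neurod1 (-0.51) did not pass (edgeR adjusted p = 0.0866, 0.183 and 0.305). The median over all genes tested was then -0.078.

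In paraffin sections Bhlhe22, Bcl11b, Neurod6 and Zbtb20 were lower and Tbr1 higher than in fixed frozen sections, 5 of the 10 genes, where 13.7% and 14.4% of 12189 genes were called higher and lower in paraffin. Bhlhe22 was lower, at -2.14 ± 0.27 (edgeR adjusted p = 3.45e-14), Bcl11b at -1.06 ± 0.17 (edgeR adjusted p = 3.79e-08) and Neurod6 at -0.99 ± 0.16 (edgeR adjusted p = 1.05e-07). Zbtb20 was lower, at -0.35 ± 0.14 (edgeR adjusted p = 0.0388) and Tbr1 higher by 0.65 ± 0.25 (edgeR adjusted p = 0.0359). The first was lost without replicate 2, 3 or 4 (edgeR adjusted p = 0.0842 to 0.318) and the second without replicate 1, 2 or 3 (edgeR adjusted p = 0.087 to 0.203). Scaling by DESeq2 size factors moved the median of all genes from 0.047 to 0.22, and with it Lhx2, uncalled, changed sign to 0.076 and Zbtb20 moved to -0.14 and did not pass (edgeR adjusted p = 0.454). Zbtb20 was -0.14 with DESeq2 (DESeq2 adjusted p = 0.249) and -0.10 with filterByExpr (edgeR adjusted p = 0.479). Neurod2 passed with filterByExpr (0.33, edgeR adjusted p = 0.0442). In the fit as described, Neurod1, Neurod2, Mef2c, Lhx2 and Emx2 did not pass, at 0.096 ± 0.26, 0.093 ± 0.15, -0.35 ± 0.16, -0.11 ± 0.19 and -1.31 ± 0.80. Oligodendrocyte marker sums in CA1, CA3 and DG were 10448, 4818 and 2399.5 CPM in fixed frozen TE. They were 15630, 12169 and 10113 CPM in paraffin. Sums of glutamatergic markers (Neurod6 among them) went from 4796, 4371 and 4035 to 3002, 4487 and 2845 CPM, higher in paraffin in CA3 only. The part of these cells in the differences was not tested.

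**Figure D4:**
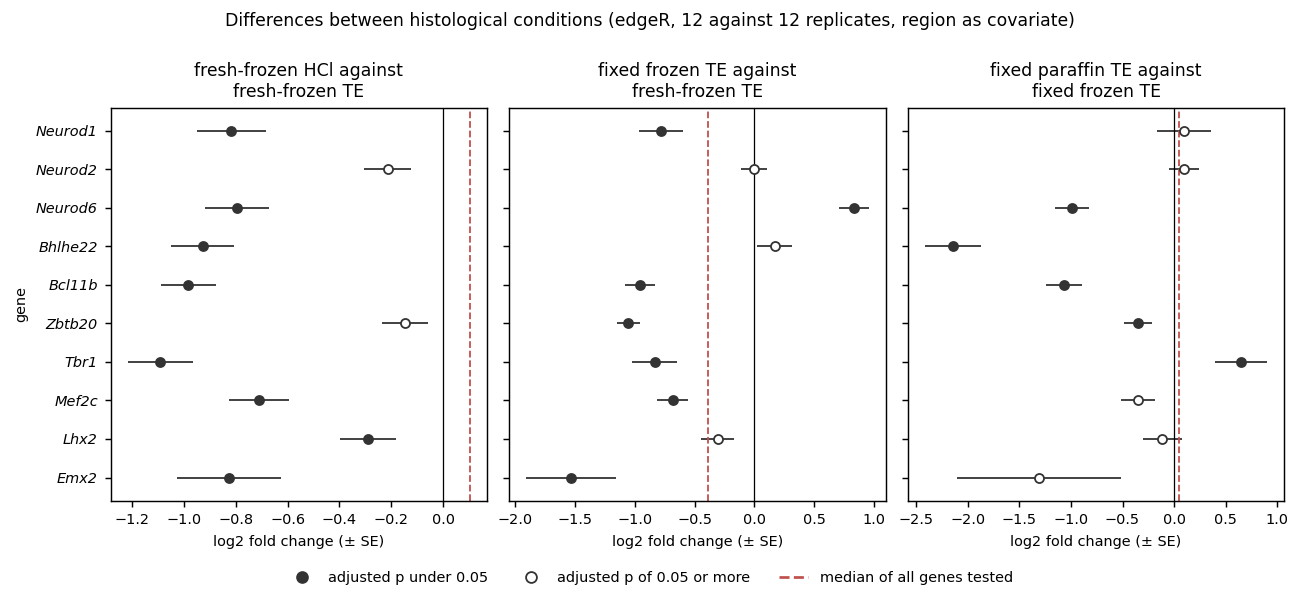
Log2 fold change ± SE (x axes) of each gene (y axis) between conditions, on 12 against 12 replicates with region as a covariate. Filled points are called (edgeR adjusted p under 0.05), open points are not, and the dashed line is the median of all genes tested. All 10 points lie left of 0 in the first panel, Neurod6 at 0.83 is the called gene right of 0 in the second, and Bhlhe22 at -2.14 lies farthest left in the third.

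Of 69 other transcription factors and partners of the 10 (E proteins and Id proteins, MEF2 and class IIa HDACs, zinc finger factors, LIM and other homeodomain factors, T-box and further families), 60 were tested between CA1 and DG in fresh-frozen HCl, of which 10 were higher in CA1 and 6 in DG. In fresh-frozen TE 15 and 7 of 59 and in fixed frozen TE 8 and 8 of 56 were called, and in paraffin 2 and 4 of 56. Between CA3 and DG, 4 and 8 of 60, 6 and 8 of 60, 3 and 13 of 55 and 0 and 4 of 57 were higher in CA3 and in DG in the same order of conditions. Between CA1 and CA3, 10 and 3 of 60, 11 and 3 of 60, 12 and 2 of 54 and 3 and 0 of 49 were higher in CA1 and in CA3. Pou3f1, a POU factor of CA1 pyramidal cells, was higher in CA1 than in CA3 by 2.74 ± 0.24, 2.69 ± 0.22, 3.32 ± 0.42 and 2.71 ± 0.61. Foxp1, a forkhead factor, was higher in CA1 than in CA3 by 0.45 ± 0.14, 0.90 ± 0.15, 1.54 ± 0.21 and 1.21 ± 0.35, the same direction as Bcl11b. Rfx3, a winged helix factor, was lower in CA1 than in DG, at -1.88 ± 0.19, -2.16 ± 0.18, -2.58 ± 0.34 and -1.31 ± 0.35, as Neurod1 and Bhlhe22 were. Bhlhe41, a bHLH repressor, was lower in CA3 than in DG in the 3 frozen conditions (-0.99 ± 0.22, -0.84 ± 0.21 and -1.90 ± 0.46), as Bcl11b was. Id4, which blocks bHLH factors from binding DNA, was lower in CA1 than in DG in fresh-frozen TE, fixed frozen TE and paraffin (-0.60 ± 0.19, -1.71 ± 0.38 and -1.72 ± 0.46).

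Between the conditions, 6 and 23 of 62 of these other genes were higher and lower in fresh-frozen HCl than in fresh-frozen TE. In fixed frozen against fresh-frozen TE sections, 7 and 31 of 61 were higher and lower, and 9 and 10 of 60 were higher and lower in paraffin than in fixed frozen sections. The interaction called 8 of 63. Of 4 genes known as targets of the 10 (Dsp and C1ql2 downstream of Bcl11b in granule cells, Reln of Tbr1, and Grin2b of Tbr1 with CASK), Dsp and C1ql2 were lower in CA3 than in DG in all 4 conditions, and Reln was lower in CA1 and in CA3 than in DG in fresh-frozen TE. Dsp and C1ql2 are also among the granule cell markers by which the regions were checked. C1ql2 stood at log2 fold changes of -2.99 ± 0.26, -3.13 ± 0.27, -2.80 ± 0.43 and -3.42 ± 1.17. Both were also lower in CA1 than in DG in the 3 frozen conditions, where the difference of Bcl11b passed only in fresh-frozen TE with the block, in the other direction. Between CA1 and CA3, where Bcl11b was higher in CA1, Dsp was lower in CA1 in fresh-frozen HCl (-2.15 ± 0.58, edgeR adjusted p = 0.00623) and C1ql2 in fixed frozen TE (-3.27 ± 1.68, edgeR adjusted p = 0.0333). Grin2b, an NMDA receptor subunit, was higher in CA1 than in DG in the 3 frozen conditions (0.67 ± 0.18, 0.62 ± 0.17 and 0.57 ± 0.18), where Tbr1 did not pass.

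Markers of cells other than excitatory neurons were present in all libraries. The 7 oligodendrocyte markers, none of them at 0 in any library, were highest in CA1, with sums of 11600.0 ± 4381, 7805 ± 1244 and 3774 ± 973 CPM in CA1, CA3 and DG in fresh-frozen HCl. The sums were 6552 ± 1726, 6075 ± 866 and 2734 ± 403 in fresh-frozen TE, 10448 ± 3859.7, 4818 ± 1216 and 2399.5 ± 393 in fixed frozen TE and 15630.0 ± 4019.6, 12169 ± 4203 and 10113 ± 4508 in paraffin. Replicate 4 of CA1 in fresh-frozen HCl, at 18066 CPM, stood above the other replicates of its library, which ran from 8811 to 10539, and it held the lowest CPM of 6 of the 10 genes in that library (Neurod1, Bhlhe22, Bcl11b, Tbr1, Mef2c and Lhx2). In the frozen conditions Neurod6 was higher in CA1 and CA3 than in DG as these sums were, and Neurod1 and Bhlhe22 were lower. The 6 glutamatergic markers (Neurod6 among them, Camk2a or Nrgn most abundant) summed to 5256 ± 628, 5317 ± 711 and 5925 ± 522 CPM in CA1, CA3 and DG in fresh-frozen HCl, where DG was highest, and to 5819 ± 503.5, 5001 ± 350.1 and 5824 ± 431 in fresh-frozen TE. They summed to 4796 ± 503.5, 4371 ± 638 and 4035 ± 432 in fixed frozen TE, where CA1 was highest, and to 3002 ± 701, 4487 ± 1291 and 2845 ± 545 in paraffin, where CA3 was highest as for Neurod6 and Neurod2. The sum of 4 choroid plexus markers, mostly Ttr, varied between replicates, and was 8989 CPM in replicate 1 of DG in paraffin and 35.9 to 249 in the other replicates of that library. Of 5 neocortical layer markers, listed since Tbr1 and Bcl11b are also neocortical, Rasgrf2 was higher in DG than in CA1 and CA3 in all 4 conditions. The 5 summed to 316, 389 and 665 CPM in CA1, CA3 and DG in fresh-frozen HCl, of which Rasgrf2 gave 86.4, 148 and 475. In fresh-frozen TE they summed to 375, 366 and 612, of which it gave 119, 142 and 396. The others together were thus lowest in DG in both, and in fixed frozen TE they were highest in DG. The 5 endothelial markers summed to 259 ± 39.2, 229 ± 42.7 and 283 ± 41.9 CPM in fresh-frozen TE. The part of these cells in the differences of the 10 genes was not tested.

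To describe which genes followed the same pattern, the mean log2(CPM + 10) of each library was set against the mean of the 3 libraries of its condition, and Pearson correlations were taken over the 12 libraries for the 6568 genes that averaged 10 UMIs or more in a replicate. The libraries share depth and condition, and the correlations are given as descriptions. Neurod1 was most like Sntb2 (r = 0.984) and Neurod6 most like Prkca (r = 0.992). Bhlhe22 was most like Dusp14 (r = 0.975) and Calb2 (r = 0.972), and Bcl11b most like Ppp1r1a (r = 0.969). Zbtb20 was most like Hook1 (r = 0.977), Neurod2 like Slc8a2 (r = 0.963), Mef2c like Sec61a1 (r = 0.957), Lhx2 like AI987944 (r = 0.954) and Tbr1 like Cdkn2d (r = 0.916), and Emx2 had too few UMIs. Among the 10, the highest were Bhlhe22 with Zbtb20 (r = 0.884), Neurod1 with Bhlhe22 (r = 0.877) and Zbtb20 with Lhx2 (r = 0.876), and the lowest Neurod6 with Mef2c (r = -0.924) and Zbtb20 with Tbr1 (r = -0.862).

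**Figure D5:**
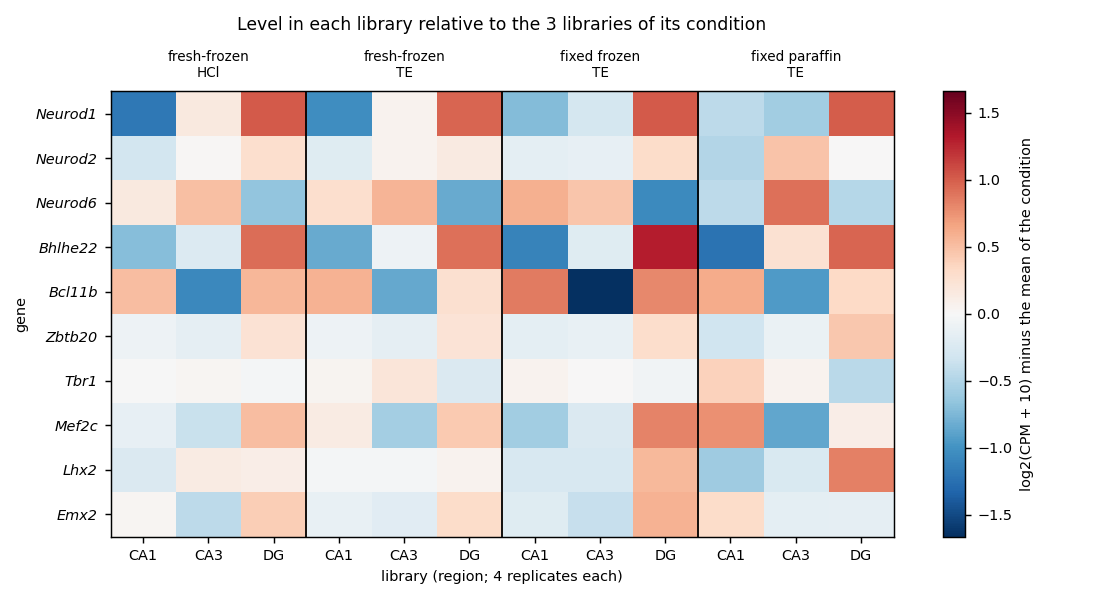
Mean log2(CPM + 10) of each gene (rows) in each of the 12 libraries (columns, 3 regions in each of 4 conditions, 4 replicates per library) minus the mean of the 3 libraries of its condition (colour). Neurod1 and Bhlhe22 are red in DG in all 4 conditions, and Bcl11b is blue in CA3 in all 4.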

How the data were processed

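Count tables of 12 libraries, each holding 4 barcoded replicates of 1 region in 1 histological condition, were used, 48 columns in all. The authors deposited UMI counts per gene: barcodes and UMIs of 6 bases each were read with UMI-tools 1.0.0, 3' tags were aligned to GRCm38 with HISAT2 2.1.0, assigned to genes with featureCounts 1.6.4 and counted as different UMIs per gene. Totals per replicate ran from 35932 to 1111804 UMIs, so the fixed sections give the less precise values, and intervals cover counting error only.

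Here genes that reached 10 UMIs in the sum of the replicates compared were fitted with edgeR 4.0.16 in R 4.3.3 (TMM scaling, quasi-likelihood test, Benjamini-Hochberg adjustment over all genes tested). Regions were compared within a condition on 4 against 4 replicates, conditions with region as a covariate, and the change of the regional differences as an interaction over all 48. The scripts were tested on simulated data. CPM values use the total of each replicate. DESeq2 1.42.0, DESeq2 size factors in edgeR, filterByExpr, no filter, a replicate block, thinning to 35932 UMIs, a correction for repeated UMIs and leaving out replicates were the alternatives.

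Groups and replicate numbers came from the sample labels. Nothing says which mouse gave which replicate, so p-values measure the spread between these samples. The numbers were taken as pairing the samples where, over the 4 same-numbered pairs, every correlation of deviations from the group means was above 0.1: CA3 against DG in fresh-frozen HCl and all 3 comparisons in fresh-frozen TE, 4 of 12. This cut does not show that samples of the same number came from the same mouse.

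The genes described, the other lists and the rule for naming genes were chosen with earlier results of these data known. All 10 genes were named, with up to 2 called genes per list, direction and comparison with the smallest adjusted p, and up to 3 genes most alike. Gene positions are those of GENCODE M21, which held 32515 of the 32546 identifiers, and the annotation release behind the counts is not given in the sources used here. No protein sequences and no start site of Bhlhe22 were analysed here. Some genes of the lists are not reported here by name.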

Additional observations from a re-analysis of the deposited data

Results flagged for a closer look

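In 7 of 120 groups of 4 replicates (a gene in 1 region and condition), 1 replicate stood apart from the other 3 by Dixon's criterion, where chance gives about 1 in 20 groups. Replicate 4 of CA1 in fresh-frozen HCl, the shallowest of the fresh-frozen sections with 127253 UMIs and the highest in oligodendrocyte markers of its library, was low for Neurod1 (7.86 CPM, from 1 UMI) and for Mef2c (236 CPM). Replicate 1 was low for Bcl11b in DG in fresh-frozen HCl (463 CPM) and for Zbtb20 in CA1 in fresh-frozen TE (2466 CPM), and high for Lhx2 in CA3 in fresh-frozen TE (249 CPM). Emx2 was detected in 1 replicate each of CA3 and DG in paraffin, at 8.27 CPM in replicate 1 of CA3 from 1 UMI and at 8.97 CPM in replicate 3 of DG from 2 UMIs, so these values rest on 1 and 2 molecules.

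The differences of Mef2c between the regions differed between the conditions by the interaction test (edgeR adjusted p = 0.000809). CA1 over DG was -1.28 in fixed frozen sections and, without passing, 0.65 in paraffin (edgeR adjusted p = 0.154), while CA1 over CA3 was called above 0 in both fresh-frozen TE (0.72) and paraffin (1.74). Without replicate 2 of every library the test did not pass (edgeR adjusted p = 0.068).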

How the results depend on the processing

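No called value of the 10 genes changed sign under any alternative. DESeq2 lost 11 of 48 regional calls, all in fixed sections, DESeq2 size factors 6 of 49, thinning 26 of 48, and the correction for repeated UMIs 0 of 49. Thinned to 35932 UMIs in 1 random draw, 0, 2 and 1 genes were called in CA1 against DG, CA3 against DG and CA1 against CA3 in fresh-frozen HCl, 2 and 2 in CA3 against DG and CA1 against CA3 in fresh-frozen TE, 4 in CA1 against DG in fixed frozen TE, 0 and 1 in CA1 and CA3 against DG in paraffin, 4, 4 and 3 in the 3 comparisons of conditions and 0 in the interaction. The losses fell in fresh-frozen and fixed sections, and the 6 calls of Bcl11b in frozen sections were not lost. In fresh-frozen HCl, thinning moved CA3 over DG to -0.44 for both Neurod1 (from -1.002) and Bhlhe22 (from -1.20), and CA1 over DG of Neurod1 from -2.58 to -1.68. In fresh-frozen TE it moved Neurod1 from -2.18 to -4.31 (CA1 over DG) and from -1.25 to -3.37 (CA1 over CA3), and in paraffin Bhlhe22, uncalled, from -0.46 to -1.85 (CA3 over DG). DESeq2 called 4 in CA1 against DG in fixed frozen TE, 0, 1 and 1 in paraffin and 2 in the interaction. In CA1 against DG in paraffin, DESeq2 size factors called 0 and filterByExpr 1, and the interaction called 2 with the correction for repeated UMIs.

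With 1 replicate left out, 5 to 5, 5 to 6 and 2 to 3 genes were called in fresh-frozen HCl, 3 to 3, 5 to 5 and 3 to 4 in fresh-frozen TE, 4 to 6, 5 to 8 and 1 to 1 in fixed frozen TE and 0 to 2, 1 to 3 and 1 to 4 in paraffin (CA1 against DG, CA3 against DG, CA1 against CA3). Left out of every library, a replicate number gave 7 to 8, 7 to 8 and 3 to 4 in the comparisons of conditions and 0 to 2 in the interaction.

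The replicate block called 7 in CA1 against DG in fresh-frozen TE. Outside the 4 comparisons taken as paired, not every same-numbered correlation was above 0.1. The lowest was 0.00104, in CA1 against DG in fresh-frozen HCl, where 0 of 4 replicates correlated best with their own number. In CA1 against DG in paraffin 4 of 4 did so, with correlations from 0.0725 to 0.286. In each other comparison of the fixed sections 3 of 4 did so. The rule thus does not show these samples to be unpaired. Over all 12 comparisons, those taken as paired included, 35 of 48 replicates correlated best with their own number. Where the samples were not taken as paired, the block called 5 in CA3 against DG in paraffin and 4 in the interaction, with 1006 in place of 508 genes. It lost no call of the 10 genes.

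Over all genes, DESeq2 called 1616 in place of 2526 in CA1 against DG in fresh-frozen HCl, 392, 445 and 291 in place of 764, 867 and 597 in fixed frozen TE, 101, 151 and 86 in place of 295, 301 and 177 in paraffin and 909 in place of 508 in the interaction. Thinning gave 245, 140 and 130 in fresh-frozen HCl in place of 2526, 1363 and 1428, 137, 107 and 56 in fresh-frozen TE in place of 1420, 1138 and 640, 197, 227 and 227 in fixed frozen TE, 115 and 114 in CA1 and CA3 against DG in paraffin, 698, 2619 and 1459 in place of 5550, 7733 and 3419 between conditions and 72 in the interaction. The filter by filterByExpr gave 501 and 142 in CA1 against DG in fixed frozen TE and paraffin, and 4367 and 1596 in the last 2 comparisons of conditions. Left-out replicates moved the count to 937 (CA1 replicate 3, CA1 against CA3, fresh-frozen HCl), 715 (DG replicate 2, CA3 against DG, fresh-frozen TE), 488 (CA1 replicate 2, CA1 against DG, fixed frozen TE), 195 (DG replicate 2), 172 (CA3 replicate 2) and 95 to 273 (CA1 replicate 1, CA3 replicate 1) in the 3 paraffin comparisons, and 270 (replicate 2) in the interaction. DESeq2 size factors moved the median of all genes by 0.12 in CA1 against DG in paraffin.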
